A study of Arabidopsis thaliana with 12 samples.

Results

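The cysteine-rich receptor-like kinases (CRKs) of Arabidopsis thaliana were examined as a gene family in seedlings treated with increasing doses of cycloheximide (CHX). A list of 42 family genes was matched by locus identifier to a table of 12905 genes, and 28 of the 42 were found there and are analysed here. The authors kept genes that reached at least 5 reads in at least 1 library (every gene of the table reached 6), so a gene's measured counts decided whether it entered. Of the 28, 12 had 5 or more reads in a library at 0 µM, and the other 16 passed only through CHX libraries (19 at a minimum of 6 reads). Those genes had to be higher in a CHX library than in the untreated ones, and counts over the 28 are given as a description of the genes that passed. Over the whole table, 11105 genes (86.1%) had 5 or more reads in a library at 0 µM. The remaining 14 listed genes are not analysed here, namely RKF2 (AT1G19090), CRK5, CRK16, CRK21, CRK22, CRK24, CRK25, CRK26, CRK27, CRK30, CRK33, CRK34, CRK37 and AT4G11500. The family was singled out with dose results of these libraries already known, so that its counts are no independent evidence of a direction.

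The 12 libraries came from whole wild type seedlings of accession Col-0, 2 weeks old, held for 2 h in water with CHX at 0, 1, 10 or 100 µM under light of 30 µE, after at least 1 h of equilibration. There were 3 libraries for each of the 4 doses, the 0 µM libraries are the untreated controls, and no group carried a mutation or transgene. CHX halts elongation by cytosolic ribosomes, and the comparison of doses asks how transcript levels stand when translation is arrested. The labels were followed for the treatment, although the text of the study names this record for a mutant and another record for CHX. The labels do not say whether replicates were grown or treated apart, and p-values measure the spread between these libraries only. In whole seedlings, fewer cells that express a gene and less RNA of it per cell cannot be told apart.

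CRKs are transmembrane kinases of the plant cell surface. Their outer part carries repeats of a domain named DUF26, defined by a spaced motif of 3 cysteines, and their inner part is a serine/threonine kinase. Members are known for transcript induction by pathogens, salicylic acid and ozone, and several act in the production of reactive oxygen species outside the cell by the NADPH oxidase RBOHD and in pattern-triggered immunity. The family grew by tandem duplication, and most of its members lie on chromosome 4.

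The largest tandem cluster ran from CRK5 (AT4G23130) to CRK24 (AT4G23320) on chromosome 4, chr4:12117491-12191704 in the TAIR10.1 assembly of RefSeq. Its 74.2 kb held 21 protein-coding genes, of which 20 were listed CRKs, 9 on the forward and 11 on the reverse strand. Within it 15 members were analysed, and 13 members were analysed outside it. Those outside sat on chromosome 1 (CRK2 and CRK3), chromosome 3 (CRK4), chromosome 5 (CRK42) and elsewhere on chromosome 4, partly in smaller arrays such as CRK36, CRK38, CRK39 and CRK40. In the RefSeq coding models each of the 28 carried at least 2 copies of the motif cysteine, 8 residues, cysteine, 2 residues, cysteine, and 26 carried exactly 2. EP1 (AT4G23170, also named CRK9) had 1 exon and 265 residues, against 627 to 1043 residues in the other 27, and 20 of the 28 had 7 exons.

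Duplicated genes can share reads. Of the 28 analysed members, 19 had no stretch of 50 bases in the last 500 bases of their transcript that recurred elsewhere in the genome. The share of recurring stretches was 70.7% in CRK8, 16.9% in CRK18, 9.98% in CRK6 and 5.54% in each of CRK19 and CRK20, and under 5% in CRK31, CRK32, CRK36 and CRK39. Gene models of members also overlapped each other, by 32 bases on opposite strands at the 3′ ends of CRK10 and CRK11, by 470 bases on the same strand in CRK28 and CRK29, and by 1190 bases on the same strand in EMB1290 (AT4G23250, also named CRK17) and CRK16. Other annotated genes overlapped CRK29 (AT4G03065, by 305 bases on the same strand), CRK19 (AT4G23271, by 102 bases on the opposite strand) and CRK42 (AT5G40382, by 130 bases on the opposite strand). Whether counting used the strand is not given in the sources used here, and how reads were split between these genes is uncertain. The values of CRK8 are the least certain of the family on this count.

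The 250 bases before the annotated start of each gene were read from TAIR10.1 and searched on both strands for the W-box, TTGACC or TTGACT, the element that WRKY transcription factors of the defence response are known to bind. Shown here are CRK31, CRK36 and CRK38, members with a wide dose response, CRK11 with the most W-boxes, and CRK10, a strongly responding member with none. They are written 5′ to 3′ in the direction of the gene, with W-boxes of either strand in capitals.
CRK31 promoter (chr4:6967459-6967708, forward strand): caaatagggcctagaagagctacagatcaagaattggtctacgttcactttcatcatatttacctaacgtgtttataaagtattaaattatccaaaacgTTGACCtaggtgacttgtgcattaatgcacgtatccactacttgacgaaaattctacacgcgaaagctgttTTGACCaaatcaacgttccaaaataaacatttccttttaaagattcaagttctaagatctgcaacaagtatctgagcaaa
CRK36 promoter (chr4:2234690-2234939, reverse strand): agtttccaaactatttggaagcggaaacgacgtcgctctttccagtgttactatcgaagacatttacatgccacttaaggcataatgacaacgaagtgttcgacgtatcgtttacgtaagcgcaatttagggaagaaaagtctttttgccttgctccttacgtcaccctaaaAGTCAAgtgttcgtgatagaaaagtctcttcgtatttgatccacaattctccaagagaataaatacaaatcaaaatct
CRK38 promoter (chr4:2241822-2242071, forward strand): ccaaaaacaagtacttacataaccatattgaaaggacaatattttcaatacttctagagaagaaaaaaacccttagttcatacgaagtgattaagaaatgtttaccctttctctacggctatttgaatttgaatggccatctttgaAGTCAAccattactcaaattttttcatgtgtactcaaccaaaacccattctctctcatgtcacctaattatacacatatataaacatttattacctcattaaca
CRK11 promoter (chr4:12143859-12144108, reverse strand): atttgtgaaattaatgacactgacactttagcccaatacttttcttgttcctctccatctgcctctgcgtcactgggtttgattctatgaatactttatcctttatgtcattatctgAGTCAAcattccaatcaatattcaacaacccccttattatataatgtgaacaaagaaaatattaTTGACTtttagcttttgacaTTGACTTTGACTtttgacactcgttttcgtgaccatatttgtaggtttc
CRK10 promoter (chr4:12137745-12137994, forward strand): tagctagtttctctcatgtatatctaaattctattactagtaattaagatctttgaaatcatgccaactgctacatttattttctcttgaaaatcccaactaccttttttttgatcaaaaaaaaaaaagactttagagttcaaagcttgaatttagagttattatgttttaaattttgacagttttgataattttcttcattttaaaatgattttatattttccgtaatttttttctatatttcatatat
CRK31 thus held 2 W-boxes, CRK36 and CRK38 had 1 each, CRK11 had 4 and CRK10 had 0. Over the family 19 of the 28 promoters (67.9%) held a W-box, against 29.6% of the 12588 promoters of table genes that could be read. In the tandem cluster 10 of 15 promoters had one and outside it 9 of 13, while 2 or more were found in 6 of 15 and in 1 of 13. The core TTGAC, which every W-box contains, stood in 75.0% of member promoters and in 46.5% of those of table genes. The core TGACG, bound by TGA factors of the salicylic acid response, stood in 39.3% against 19.4%. The G-box CACGTG stood in 3.57% against 7.52%, that is in CRK41 alone among the members. In the letters TTGACG the cores TTGAC and TGACG overlap. A match of letters is a description and was not tested as a binding site.

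Total counts per library ran between 1073063 and 3724564, and the members together took 0.0108 to 0.0201% of the reads at 0 µM and 0.0511 to 0.0838% at 10 or 100 µM. Levels are given as CPM, reads scaled to a common library size with TMM factors (trimmed mean of M values), in the order of replicates 1 to 3. A sum of 3 counts over a dose corresponded to 0.430 CPM at 0 µM and 0.606 CPM at 100 µM. Replicates of every dose differed by more than sampling noise, and no pair was taken for a repeated library. Scaling by total counts alone moved the median log2 difference of all genes to −1.01 at 100 against 0 µM and scaling to 10 listed reference genes moved it to 0.35, against 0.02 with TMM. Among the called genes at 100 against 0 µM the higher ones made up 61.5% with TMM, 24.7% with total counts and 75.7% with reference genes. Of the markers, all 5 of leaf and all 6 of root were detected at every dose, as in whole seedlings. Their summed levels moved with the dose, from the lowest to the highest library 7597 to 8259 CPM at 100 µM and 13223 to 15144 CPM at 0 µM for leaf, and 139 to 175 CPM at 100 µM and 220 to 349 CPM at 0 µM for root. Their part in the results was not tested.

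Calls rest on edgeR's quasi-likelihood test with Benjamini-Hochberg adjustment over 12905 genes, with an adjusted p under 0.05 and a minimum change of 2-fold. At 100 against 0 µM, 20 of the 28 members were called higher and 0 lower, where 23.8% of all genes were called higher and 14.9% lower. At 10 against 0 µM, 22 were called higher and 0 lower, beside 22.4% and 12.1% of all genes. At 1 against 0 µM, 12 were called higher and 0 lower, beside 13.5% and 3.12%. In all 3 comparisons 0 members were lower at an unadjusted edgeR p under 0.05, and DESeq2 called 0 lower. These 3 comparisons share the untreated libraries. The median log2 change of the members was 3.19 at 100 µM, 3.46 at 10 µM and 1.72 at 1 µM, beside 0.02 for all genes at each dose. With CRK32, which had 0 counts at 0 µM, set at its bound, it was 2.95 at 100 µM and 3.39 at 10 µM. With total counts the member medians at 100, 10 and 1 µM were 2.18, 2.67 and 1.62, beside −1.01, −0.82 and −0.31 for all genes. Every library of the CHX dose lay above every untreated library in 22 members at 100 µM, 23 at 10 µM and 17 at 1 µM, beside 29.6%, 30.0% and 23.8% of all genes. The reverse held in 0 members at each of these doses, beside 24.3%, 24.1% and 15.1% of all genes. It could not hold in a member with 0 reads in an untreated library, and 16 of the 28 passed the read filter only through CHX libraries. Among the 12 members with 5 or more reads in an untreated library, 9 were called higher at 100 µM, 10 at 10 µM and 7 at 1 µM, beside 20.1%, 18.2% and 12.4% of the 11105 genes with as many untreated reads. Median log2 changes of these 12 were 2.58, 2.65 and 1.85, against −0.17, −0.15 and −0.07 for those 11105 genes. Of the 19 members with a W-box, 11 were called higher at 100 µM and 13 at 10 µM. Of the 9 members without one, 9 were called higher at each of these doses, beside 23.8% and 22.4% of all genes. A link between W-box and response was not tested.

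**Figure D1:**
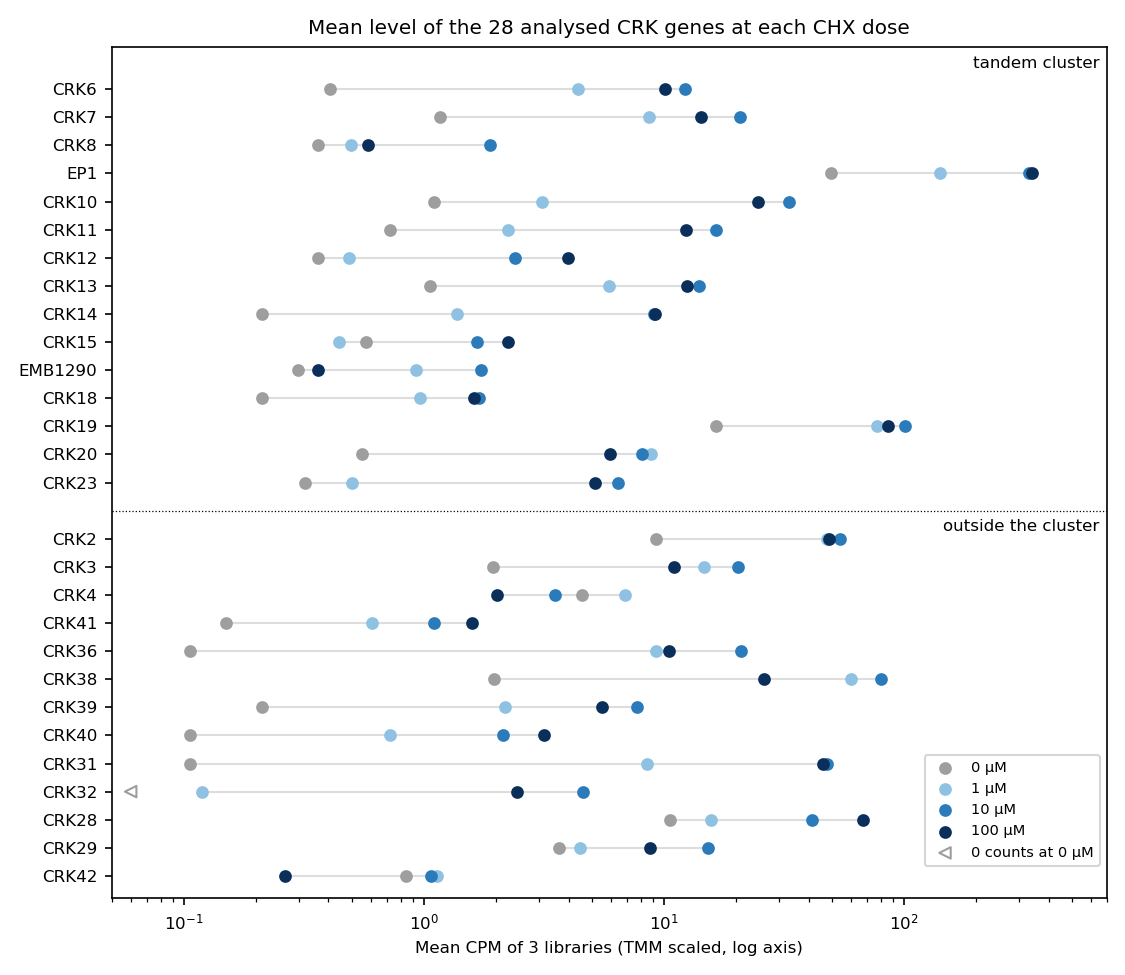
Mean level of each analysed CRK gene at the 4 CHX doses, in CPM on a log axis (mean of 3 libraries, TMM scaled), for the tandem cluster (15 genes, top) and the genes outside it (13 genes, bottom). The grey point of 0 µM is the lowest in all of the 28 genes but CRK15, CRK4 and CRK42, and the open triangle of CRK32 marks a mean of 0, which has no place on the axis.

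In the tandem cluster, EP1 took the most reads of the family and CRK19 the next most, in counts of 3′ ends, which are not scaled to transcript length. EP1, a short protein with the cysteine-rich domain, had 41.0, 37.6 and 70.2 CPM at 0 µM, 131, 141 and 152 CPM at 1 µM, 421, 242 and 332 CPM at 10 µM and 276, 314 and 429 CPM at 100 µM. Every CHX library exceeded every untreated one. Its log2 change was 1.51 ± 0.25 at 1 µM, 2.74 ± 0.25 at 10 µM and 2.77 ± 0.25 at 100 µM (SE, edgeR adjusted p = 5.99e-05, 7.70e-09 and 5.93e-09). CRK19, a member known to respond to salicylic acid, had 16.5, 10.0 and 22.8 CPM at 0 µM, 66.9, 58.3 and 105 CPM at 1 µM, 103, 87.2 and 111 CPM at 10 µM and 69.1, 93.2 and 94.7 CPM at 100 µM. Its libraries at 1 µM already stood clear of the untreated ones, with a log2 change of 2.19 ± 0.26, and the step between 1 and 10 µM was not called. At 100 µM the change of CRK19 was 2.35 ± 0.27 (adjusted p = 1.89e-07).

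CRK10 and CRK11 were near the floor in untreated seedlings and were called at 10 and 100 µM but not at 1 µM. CRK10, which is known to be induced by salicylic acid, had 1.59, 1.25 and 0.447 CPM at 0 µM, 4.27, 2.33 and 2.72 CPM at 1 µM, 36.8, 25.4 and 37.1 CPM at 10 µM and 38.9, 21.2 and 14 CPM at 100 µM. Its 10 µM libraries were clear of its 1 µM libraries, with a log2 change of 3.39 ± 0.37 at 10 against 1 µM (adjusted p = 4.33e-07), and 4.34 ± 0.48 at 100 against 0 µM. CRK11 had 1.27, 0 and 0.894 CPM at 0 µM, 1.42, 3.33 and 1.95 CPM at 1 µM, 29.5, 10.6 and 9.27 CPM at 10 µM and 19.9, 6.55 and 10.5 CPM at 100 µM. Its 10 µM libraries differed more than 3-fold among themselves, and the first was the highest. The log2 change of CRK11 was 4.22 ± 0.64 at 10 µM and 3.72 ± 0.70 at 100 µM (adjusted p = 1.30e-05 and 1.28e-04). Without 0 µM replicate 1 the untreated libraries held 2 reads, and the level was 32.7-fold (95% counting interval 8.90 to 273) higher at 10 µM and 21.7-fold (95% counting interval 5.72 to 183) higher at 100 µM. Without 10 µM replicate 1 the log2 change at 10 µM was 3.48. The 3′ ends of CRK10 and CRK11 overlap, and how reads were divided there is uncertain.

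CRK6 and CRK7, which are known to take part in the protection against oxidative stress outside the cell, lie side by side and were called at each dose. CRK6 had 0.318, 0 and 0.894 CPM at 0 µM, 4.27, 5.0 and 3.89 CPM at 1 µM, 16.2, 11.9 and 8.39 CPM at 10 µM and 9.53, 9.07 and 11.7 CPM at 100 µM. All CHX libraries lay above the untreated ones, which held 3 reads together. The level was 23.5-fold (95% counting interval 7.58 to 118) higher at 100 than at 0 µM and 29.1-fold (95% counting interval 9.69 to 143) higher at 10 than at 0 µM (adjusted p = 1.35e-06 and 2.58e-07). Without 0 µM replicate 3 these became 47.9-fold (95% counting interval 8.20 to 1928) at 100 µM and 59.3-fold (95% counting interval 10.4 to 2366) at 10 µM. CRK7 had 1.27, 0 and 2.24 CPM at 0 µM, 7.83, 9.67 and 8.56 CPM at 1 µM, 20.2, 20.1 and 21.6 CPM at 10 µM and 8.73, 9.57 and 24.6 CPM at 100 µM. All CHX libraries lay above the untreated ones, replicate 3 at 100 µM stood far above the other two, and the 10 µM libraries were close together. The log2 change of CRK7 was 3.96 ± 0.48 at 10 µM and 3.44 ± 0.52 at 100 µM (adjusted p = 6.46e-07 and 9.73e-06). Leaving out 100 µM replicate 3 gave 2.80 at 100 µM, and leaving out 0 µM replicate 3 gave 4.04 at 100 µM and 4.60 at 10 µM.

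CRK13, whose overexpression is known to raise defence against Pseudomonas bacteria, had 0.318, 0.627 and 2.24 CPM at 0 µM, 4.63, 3.00 and 10.1 CPM at 1 µM, 22.2, 11.2 and 8.39 CPM at 10 µM and 10.3, 13.1 and 14 CPM at 100 µM. All of its CHX libraries lay above the untreated ones, but the 1 and 10 µM libraries overlapped. Its log2 change was 3.73 ± 0.59 at 10 µM and 3.57 ± 0.62 at 100 µM (adjusted p = 2.05e-05 and 5.72e-05). Without 0 µM replicate 3 the untreated libraries held 2 reads, and the level was 34.2-fold (95% counting interval 9.27 to 286) higher at 10 µM and 30.2-fold (95% counting interval 8.01 to 254) higher at 100 µM. Leaving out 0 µM replicate 1 gave a log2 change of 2.98 at 100 µM. Its call at 1 µM (2.46 ± 0.66) was lost when 0 µM replicate 1 (log2 1.91) or 1 µM replicate 3 (log2 1.87) was left out, and without 0 µM replicate 3 the level was 13.6-fold (95% counting interval 3.56 to 115) higher at 1 µM, with the call kept.

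**Figure D2:**
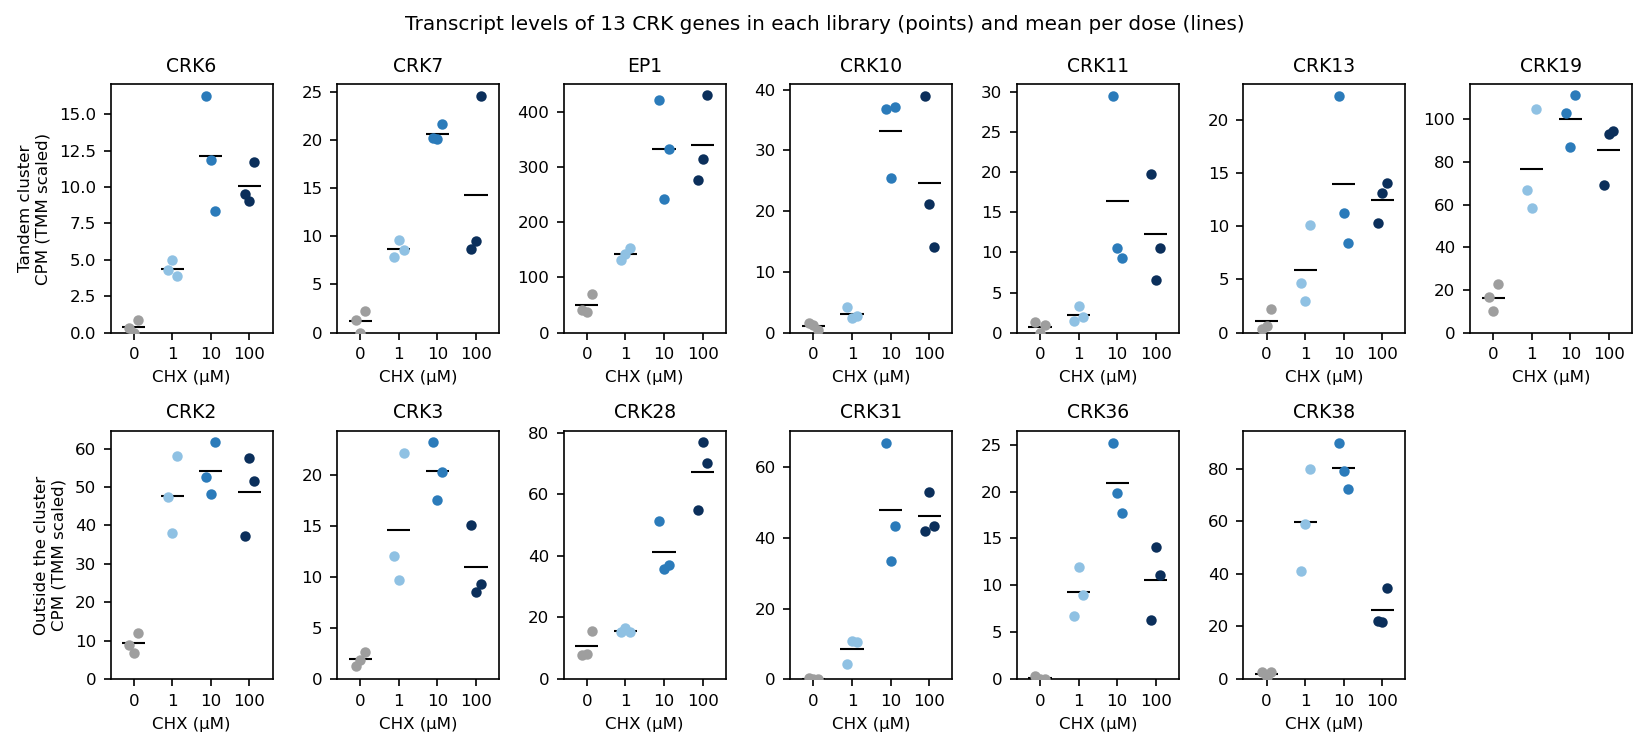
CPM (TMM scaled) of 13 CRK genes at 0, 1, 10 and 100 µM CHX, with 1 point per library and a line at the mean of 3 libraries, each panel on its own linear axis. Each of the 13 was called higher at 100 than at 0 µM, and CRK38 is the one with lower libraries at 100 µM than at 10 µM that passed the test.

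The other members of the cluster reached at most 12.3 CPM in any library, in CRK14. CRK20, another salicylic acid responsive kinase, stood out by its dose range, with means of 0.553, 8.78, 8.09 and 5.94 CPM at 0, 1, 10 and 100 µM, so that its highest mean was at 1 µM. It was called at all 3 doses (log2 change 3.81 ± 0.55 at 1 µM and 3.28 ± 0.60 at 100 µM), and without 0 µM replicate 3, which leaves 1 untreated read, it was 41.3-fold (95% counting interval 7.18 to 1654) higher at 1 µM and 28.7-fold (95% counting interval 4.77 to 1171) higher at 100 µM. CRK14, CRK23 and CRK12 were each called at 10 and 100 µM from at most 3 untreated reads. CRK14 was 33.8-fold (95% counting interval 8.86 to 287) higher at 100 than at 0 µM, CRK23 was 11.3-fold (95% counting interval 3.42 to 58.5) higher and CRK12 was 9.39-fold (95% counting interval 2.78 to 49.3) higher (adjusted p = 1.05e-05, 0.00152 and 0.00302). The untreated reads of CRK14 and CRK23 came from 0 µM replicate 1 alone. In its absence they were at least 12.4-fold and at least 6.19-fold higher at 100 µM, at a floor of 3 counts over the group, and CRK12 was 15.5-fold (95% counting interval 2.47 to 641) higher. At 10 µM CRK12 was 5.88-fold (95% counting interval 1.76 to 30.8) higher than at 0 µM (adjusted p = 0.0193), and 9.68-fold (95% counting interval 1.56 to 400.4) higher without 0 µM replicate 1. That call was lost when either 10 µM replicate 1 or 10 µM replicate 2 was left out (adjusted p = 0.0755 and 0.0571). CRK18 was called at 10 µM only, 5.88-fold (95% counting interval 1.35 to 53.3) higher than at 0 µM (adjusted p = 0.0449), and the libraries of those doses did not overlap. That call was lost without 0 µM replicates 2 or 3, 10 µM replicates 1 or 3, or any 100 µM library, with the highest adjusted p of 0.142 by edgeR without 10 µM replicate 1, and without 0 µM replicate 1 CRK18 was at least 2.15-fold higher. At 100 against 0 µM CRK18 was called when 0 µM replicate 1 was left out (adjusted p = 0.0233) and with scaling to reference genes (adjusted p = 0.0406), against 0.0649 in the fit of all libraries with TMM. CRK8, CRK15 and EMB1290 were not called in any comparison, with highest means of 1.88, 2.25 and 1.73 CPM. Leaving out the library that held the untreated reads of EMB1290, 0 µM replicate 3, brought a call at 10 µM (adjusted p = 0.0315). Leaving out 1 µM replicate 2, which held the 1 µM reads of CRK15, brought a call of CRK15 at 10 against 1 µM (adjusted p = 0.0256).

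Outside the cluster the widest range belonged to CRK31. It had 0.318, 0 and 0 CPM at 0 µM, 4.27, 10.7 and 10.5 CPM at 1 µM, 67.0, 33.3 and 43.3 CPM at 10 µM and 42.1, 52.9 and 43.3 CPM at 100 µM. Only 1 read was counted at 0 µM, in replicate 1, while no CHX library had fewer than 12. The level was 59.1-fold (95% counting interval 10.3 to 2368) higher at 1 µM, 337-fold (95% counting interval 60.1 to 13333) higher at 10 µM and 327-fold (95% counting interval 58.1 to 12961) higher at 100 µM than at 0 µM (adjusted p = 8.09e-06, 2.28e-10 and 3.13e-10). Without 0 µM replicate 1 the bounds were at least 10.8-fold, at least 61.6-fold and at least 59.8-fold. Between 1 and 10 µM CRK31 rose once more, by a log2 change of 2.49 ± 0.31, and its 10 and 100 µM libraries overlapped. CRK32, next to it in the same array, had 0 reads in the untreated libraries, 1 at 1 µM, 37 at 10 µM and 12 at 100 µM. It was at least 10.4-fold higher at 10 µM and at least 5.63-fold higher at 100 µM than at 0 µM, at a floor of 3 counts over the group (adjusted p = 9.48e-05 and 0.00137).

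All 4 analysed genes of the array from CRK36 to CRK40 on chromosome 4 were called higher at 10 and at 100 µM. CRK36, known to associate with the immune kinase BIK1, had 0.318, 0 and 0 CPM at 0 µM, 6.76, 12.0 and 8.95 CPM at 1 µM, 25.2, 19.8 and 17.7 CPM at 10 µM and 6.35, 14.1 and 11.1 CPM at 100 µM. Its untreated libraries held 1 read in all, in replicate 1, and it was 148-fold (95% counting interval 26.2 to 5870.3) higher at 10 µM and 77.5-fold (95% counting interval 13.3 to 3115) higher at 100 µM than at 0 µM (adjusted p = 4.16e-09 and 2.68e-07). Without that library it was at least 27.0-fold and at least 14.2-fold higher. Every 100 µM library of CRK36 was below every 10 µM library, with a log2 difference of −0.95 ± 0.31 that was not called (adjusted p = 0.0673). Its step of 1.17 ± 0.30 at 10 against 1 µM was called, and lost that call without 1 µM replicate 1 (a log2 change of 0.996).

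CRK38 was the 1 member with calls in opposite directions. It had 2.54, 0.627 and 2.68 CPM at 0 µM, 40.9, 59.0 and 79.8 CPM at 1 µM, 89.8, 78.9 and 72.4 CPM at 10 µM and 22.2, 21.7 and 34.5 CPM at 100 µM. The level rose at the lowest dose, with a log2 change of 4.78 ± 0.36 at 1 against 0 µM, and reached 5.21 ± 0.35 at 10 against 0 µM (adjusted p = 6.66e-10 and 5.08e-11). At 100 µM it was 3.59 ± 0.39 against 0 µM and −1.62 ± 0.26 against 10 µM (adjusted p = 9.66e-08 and 2.98e-04), and all 100 µM libraries lay below all 1 and 10 µM libraries. CRK38 was the only member called lower in any of the 5 comparisons, where 2.48% of all genes were called lower at 100 against 10 µM. CRK39 was 19.7-fold (95% counting interval 4.97 to 171) higher and CRK40 22.5-fold (95% counting interval 3.50 to 945) higher at 100 than at 0 µM (adjusted p = 1.39e-04 and 0.00113). Their untreated reads came from 0 µM replicate 1 alone, and without it they were at least 7.22-fold and at least 4.12-fold higher. Without 100 µM replicate 3 CRK39 was 12.9-fold (95% counting interval 2.87 to 119) higher. At 1 µM CRK39 was called (7.49-fold (95% counting interval 1.79 to 66.6) higher, adjusted p = 0.0215), and that call was lost without 0 µM replicate 2, 0 µM replicate 3 or 1 µM replicate 3 (adjusted p = 0.0541, 0.0705 and 0.0613 by edgeR).

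CRK2 and CRK3 are neighbours on chromosome 1, and CRK2 is known to phosphorylate RBOHD. CRK2 had 8.90, 6.90 and 12.1 CPM at 0 µM, 47.3, 38.0 and 58.0 CPM at 1 µM, 52.7, 48.2 and 61.8 CPM at 10 µM and 37.3, 57.4 and 51.5 CPM at 100 µM. Its CHX libraries were all above its untreated ones and overlapped among the 3 doses, with log2 changes of 2.33 ± 0.25, 2.52 ± 0.25 and 2.38 ± 0.26 at 1, 10 and 100 µM (adjusted p = 2.12e-07, 3.01e-08 and 9.40e-08). CRK3 had 1.27, 1.88 and 2.68 CPM at 0 µM, 12.1, 9.67 and 22.2 CPM at 1 µM, 23.2, 17.5 and 20.3 CPM at 10 µM and 15.1, 8.56 and 9.36 CPM at 100 µM. It was called at each dose, with log2 changes of 2.92 ± 0.42, 3.4 ± 0.41 and 2.48 ± 0.46, and its 100 µM libraries were below its 10 µM libraries by a log2 difference of −0.92 ± 0.33 that was not called (adjusted p = 0.0897). Without 100 µM replicate 1 that difference of CRK3 was −1.18 and was called (adjusted p = 0.0380).

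CRK28, a kinase known to associate with the co-receptor BAK1, had 7.94, 8.15 and 15.7 CPM at 0 µM, 15.3, 16.7 and 15.2 CPM at 1 µM, 51.4, 35.7 and 37.1 CPM at 10 µM and 54.8, 77.1 and 70.2 CPM at 100 µM. At 1 µM it overlapped the untreated libraries and was not called (it was without 0 µM replicate 3, with a log2 change of 1.00). At 10 µM it was called with a log2 change of 1.97 ± 0.26 and at 100 µM with 2.68 ± 0.26 (adjusted p = 1.84e-06 and 1.78e-08). It was the only named member of the 13 whose 100 µM libraries all exceeded its 10 µM libraries, and that step of 0.71 ± 0.22 was not called (adjusted p = 0.0536). CRK29, the overlapping neighbour, had means of 3.64, 4.46, 15.3 and 8.77 CPM at 0, 1, 10 and 100 µM. It was called at 10 µM, with a log2 change of 1.97 ± 0.44 (adjusted p = 7.84e-04, and 2.57 without 0 µM replicate 1), and not at 100 µM (1.07 ± 0.49, adjusted p = 0.0787), where its first library had 16.7 CPM and the others 5.54 and 4.09 CPM. The 100 µM change was called when 0 µM replicate 1 was left out (1.64, adjusted p = 0.0332), and likewise for 100 µM replicate 3 (1.41, adjusted p = 0.0258). Leaving out 100 µM replicate 1 brought a call at 100 against 10 µM (−1.65, adjusted p = 0.0129).

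CRK4, CRK41 and CRK42 were not called in any comparison. CRK4, known for cell death on overexpression, had 4.55 ± 2.08, 6.85 ± 2.24, 3.53 ± 2.32 and 2.01 ± 0.795 CPM at 0, 1, 10 and 100 µM (SD, n = 3 each). The log2 difference of CRK4 was −1.23 ± 0.60 at 100 against 0 µM (adjusted p = 0.0942), and the libraries overlapped. With scaling by total counts alone CRK4 was called lower at 100 µM (−2.28) and at 10 µM (−1.24) than at 0 µM. With that scaling 43.7% and 38.2% of all genes were called lower. CRK42 had 1 read at 100 µM and 7 at 0 µM, a ratio of 0.201 with a counting interval that included 1 (0.00446 to 1.57). CRK41 had 6 reads at 100 µM, all in replicate 1, and 1 at 0 µM.

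The cluster and the other members were set side by side without a test, since members share sequence and are not replicates. At 100 against 0 µM, 11 of the 15 cluster members and 9 of the 13 others were called higher, beside 23.8% of all genes. At 10 µM these counts were 12 and 10, beside 22.4% of all genes, and at 1 µM they were 6 and 6, beside 13.5%. Median log2 changes were 3.28 in the cluster and 2.79 outside it at 100 µM, 3.70 and 3.4 at 10 µM, and 1.54 and 1.99 at 1 µM. Only 5 of the 15 and 7 of the 13 had 5 or more reads in an untreated library. Of those 5 and 7, called higher were 5 and 4 at 100 µM, 5 and 5 at 10 µM, and 4 and 3 at 1 µM. Of all genes with as many untreated reads, 20.1%, 18.2% and 12.4% were. Their median log2 changes were 3.44 and 2.38 at 100 µM, 3.73 and 1.97 at 10 µM, and 2.19 and 0.57 at 1 µM, in the cluster and outside it. At 10 against 1 µM, 9 cluster members and 6 others were called higher, 15 in all, where 12.2% of all genes were called higher and 4.98% lower. In 15 members every 10 µM library lay above every 1 µM library, beside 22.8% of all genes. With total counts the number called higher was 8, of which 4 were in the cluster, where 7.55% of all genes were called higher and 18.8% lower. The summed level of the cluster was 73.4 ± 27.4, 257 ± 38.1, 561 ± 120.4 and 528 ± 93.0 CPM at 0, 1, 10 and 100 µM (SD, n = 3 each). That of the members outside it was 33.5 ± 9.14, 172 ± 35.5, 301 ± 46.4 and 234 ± 20.9 CPM in the same dose order. EP1 alone made up 68.3, 55.6, 58.6 and 63.9% of the cluster sum. The fold of the sums over 0 µM was 3.50, 7.65 and 7.20 in the cluster and 5.13, 8.98 and 6.98 outside it at 1, 10 and 100 µM. Without EP1 the cluster gave 4.84, 9.65 and 7.93, above the members outside it at 10 µM, where the whole cluster was below them. With total counts it was 2.77, 4.26 and 3.51 in the cluster and 4.03, 4.98 and 3.38 outside it. With reference genes it was 8.00 at 10 µM and 8.98 at 100 µM in the cluster, which put the cluster's highest mean at 100 µM (616 CPM, against 549 CPM at 10 µM), and 9.49 and 8.73 outside it.

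**Figure D3:**
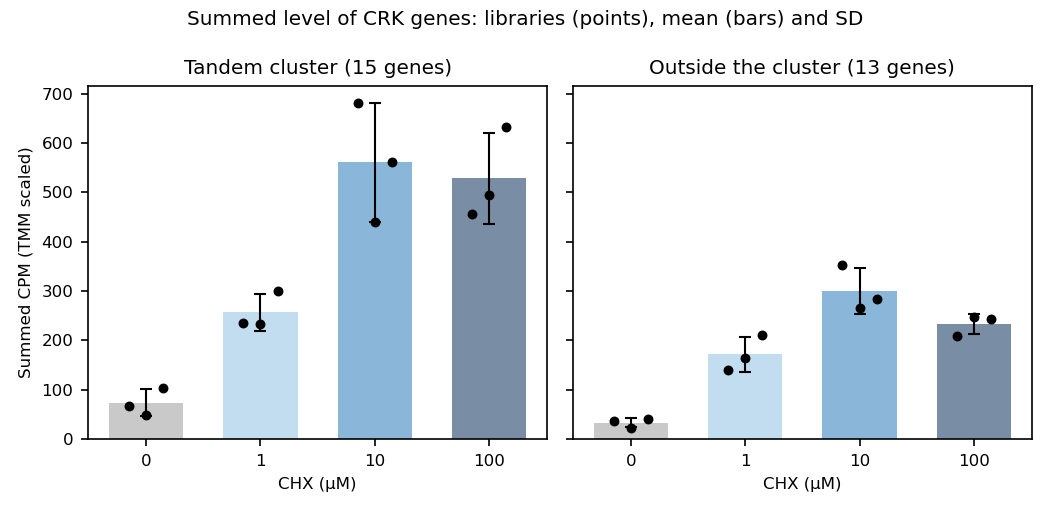
Summed CPM (TMM scaled) of the 15 analysed cluster members (left) and the 13 analysed members outside the cluster (right) by CHX dose, with points for libraries, bars for the mean and whiskers for the SD of 3 libraries. All CHX libraries lie above all untreated libraries in both panels, and the means at 10 µM are the highest at 561 and 301 CPM, although with scaling to reference genes that of the cluster is highest at 100 µM.

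With TMM scaling, most members had their highest mean at 10 µM. The share that peaked at 100 µM, 25.0%, was near the 30.5% of all genes. Of the 28, the highest mean was at 0 µM in 0, at 1 µM in 3, at 10 µM in 18 and at 100 µM in 7. Over all genes, the highest mean was at 0 µM in 34.3%, at 1 µM in 17.3%, at 10 µM in 17.9% and at 100 µM in 30.5%, so that 64.3% of the members stand beside 17.9% of all genes at 10 µM. That comparison is uneven, since 16 members passed the read filter only through CHX libraries and were unlikely to peak at 0 µM. Of the 12 members with 5 or more reads in an untreated library, 8 peaked at 10 µM, 2 at 1 µM and 2 at 100 µM. Peaks were not counted over all genes with as many untreated reads, so these 12 have no like share beside them. A joint edgeR test of the doses found a difference in 21 of the 28 members (11 in the cluster and 10 outside) and in 52.9% of all genes. Of those 21 members 15 (71.4%) had their highest mean at 10 µM, against 15.8% of the 6831 differing genes. This comparison is uneven too, since only 10 of the 21 had 5 or more reads in an untreated library. Of those 10 members, 8 peaked at 10 µM. The split between 10 and 100 µM depended on scaling, since 13 members peaked at 10 µM and 12 at 100 µM when scaled to reference genes, with 19 and 6 under RLE size factors and 16 and 5 under total counts. At 100 against 10 µM, 0 members were called higher by edgeR or by DESeq2 and 1 (CRK28) had an unadjusted p under 0.05, where 2.19% of all genes were called higher, and CRK38 was called lower. Leaving out 100 µM replicate 1 added CRK3 and CRK29, which made 3 lower. The median log2 difference of the members in that comparison was −0.40, and it ran between −0.59 with total counts and −0.17 with reference genes. The libraries did not overlap downward in 7 members and upward in 2, beside 11.5% and 14.7% of all genes.

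**Figure D4:**
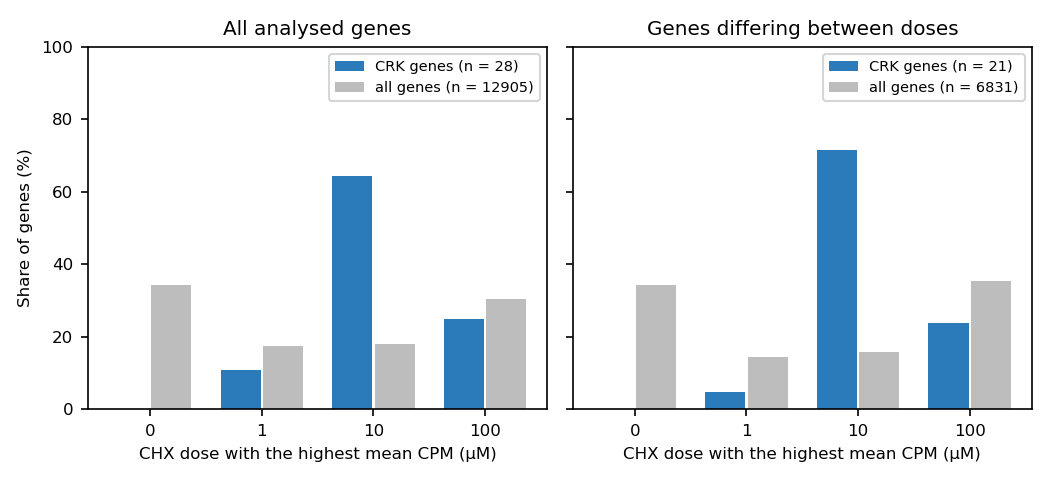
Share of genes (%) whose highest mean CPM fell at each CHX dose, for CRK genes (blue) beside all genes of the table (grey), over all analysed genes (left) and over those that differed between doses in the joint test (right). In the right panel 71.4% of the 21 CRK genes and 15.8% of the 6831 genes peak at 10 µM. Of the 28 CRK genes in the left panel, 16 passed the read filter only through CHX libraries. Of the 21 in the right panel, 10 had 5 or more reads in an untreated library.

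By adjacent steps, 8 members were called only between 1 and 10 µM, 7 rose at 1 µM and again at 10 µM, and 4 rose at 1 µM only. The last were CRK2, CRK3, CRK19 and CRK20. The 8 of the middle step were CRK10, CRK11, CRK12, CRK14, CRK23, CRK28, CRK29 and CRK32, of which 5 lie in the cluster. CRK38 rose at 1 µM and fell at 100 µM, and 8 members had no called step. Those 8 include CRK18 and CRK40, which were called in comparisons with 0 µM. Step by step, 13.5% of all genes were called higher at 1 against 0 µM and 12.2% at 10 against 1 µM. At 100 against 10 µM, 2.19% of all genes were called higher and 2.48% lower. Patterns over the steps were not counted for all genes, so the split describes the members only. In the step from 1 to 10 µM the call of CRK12 was lost without 1 µM replicates 1 or 2 or 10 µM replicates 1 or 2 (adjusted p = 0.0867 to 0.127, against 0.0319), and that of CRK13 without 1 µM replicates 1 or 2 or 10 µM replicate 1 (log2 0.76 to 1.12, against 1.27 ± 0.43, and 1.90 with the call kept without 1 µM replicate 3).

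Genes that CRKs are known to work with were set beside them, from a list that was also drawn up with earlier results known. Of 14 such genes 11 were called higher at 100 against 0 µM and 0 lower (edgeR, with 10 and 0 by DESeq2, and 0 lower at an unadjusted p under 0.05), beside 23.8% and 14.9% of all genes, with a median log2 change of 2.87 against 0.02 for all genes. RBOHD, the oxidase of the plasma membrane that CRK2 phosphorylates, had 37.5, 63.9 and 78.3 CPM at 0 µM, 549, 568 and 793 CPM at 1 µM, 1738, 1615 and 1680.0 CPM at 10 µM and 1436, 1649 and 1729 CPM at 100 µM. All of its CHX libraries exceeded all untreated ones, and its log2 change at 100 µM was 4.76 ± 0.25 (adjusted p = 8.27e-13). MPK3, a kinase of the immune cascade, had a mean of 113 CPM at 100 µM and 3.08 CPM at 0 µM, a log2 change of 5.20 ± 0.25. Its upstream kinases MKK4 and MKK5 were called with 3.56 and 2.93. Among receptors and their partners, EFR, which perceives bacterial elongation factor, was called with 4.42, the co-receptors SOBIR1 and BAK1 with 3.57 and 2.76, and the kinase BIK1 with 2.81. The second oxidase RBOHF (3.19), the calcium-dependent kinase CPK6 (2.81) and the chitin receptor kinase CERK1 (2.20) completed the 11. CERK1 rested on 14 and 4 reads at 100 and 0 µM and lost its call when 0 µM replicate 1 (1.79), 0 µM replicate 2 (2.23) or 100 µM replicate 3 (1.61) was left out. MPK6, CPK5 and the flagellin receptor FLS2 were not called, with 21.4, 2.23 and 1.16 CPM at 100 µM and 25.2, 1.06 and 0.567 CPM at 0 µM. At 1 µM 9 of the 14 were called higher, all of the 11 but CPK6 and CERK1, beside 13.5% of all genes.

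**Figure D5:**
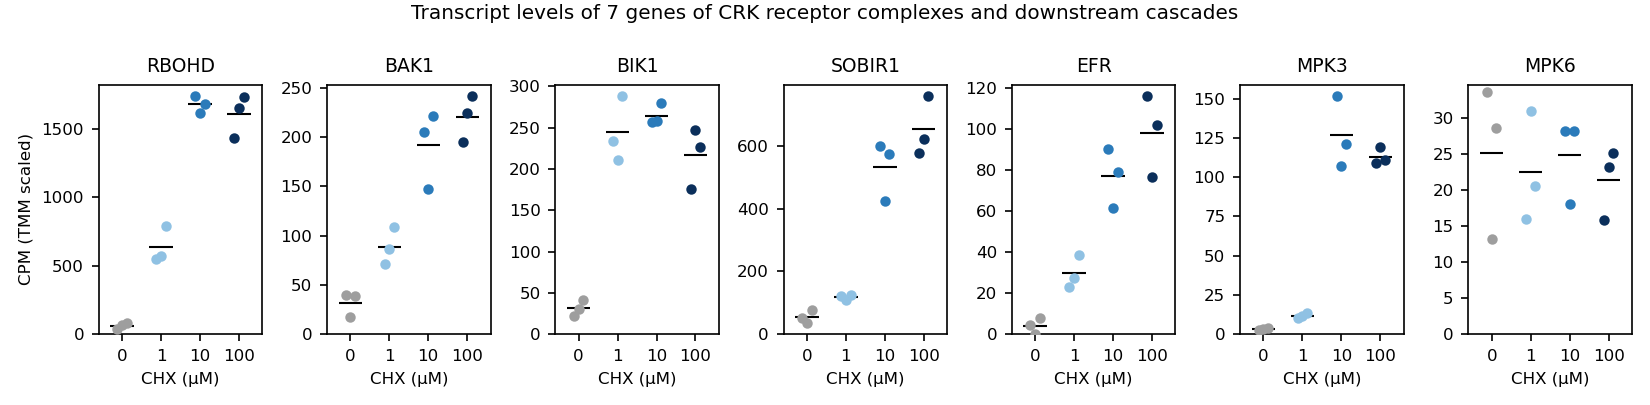
CPM (TMM scaled) of 7 genes of CRK receptor complexes and downstream cascades at 0, 1, 10 and 100 µM CHX, with 1 point per library and a line at the mean of 3 libraries, each on its own linear axis. RBOHD, BAK1, BIK1, SOBIR1, EFR and MPK3 have every CHX library above every untreated one, and the libraries of MPK6 overlap, with means of 21.4 CPM at 100 µM and 25.2 CPM at 0 µM.

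The plasmodesmata-located proteins (PDLPs), which regulate the channels between plant cells, carry the same outer domain as CRKs and no kinase. Of 7 analysed PDLP genes 2 were called higher at 100 against 0 µM and 0 lower by edgeR and by DESeq2, and 0 were lower at an unadjusted p under 0.05. The 2 are 28.6% of the list, near the 23.8% of all genes called higher. Their median log2 difference was 0.05, and −1.0 with total counts. The called ones were HWI1, also named PDLP5, with 68.6 ± 15 CPM at 100 µM and 33.5 ± 7.74 CPM at 0 µM, and PDLP7, with 21.8 ± 3.05 and 6.49 ± 0.773 CPM (SD, n = 3 each). HWI1 lost its call when 0 µM replicate 1 (log2 0.97), 0 µM replicate 2 (0.91) or 100 µM replicate 3 (0.84) was left out, against 1.03 ± 0.23, which left 1 of 7. At 10 against 0 µM PDLP7 was the 1 called, beside 22.4% of all genes, and at 1 against 0 µM both were, beside 13.5%. PDLP1, PDLP2, PDLP3, PDLP4 and PDLP6 were not called, and PDLP8 is not analysed here. A further protein kinase gene listed beside the family, AT1G70740, was called at each dose, with 231 ± 22.9 CPM at 100 µM and 5.85 ± 0.805 CPM at 0 µM.

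The genes around the tandem cluster were counted as well. Of the 20 analysed genes nearest to it, 10 on either side, 4 were called higher and 1 lower at 100 against 0 µM, with a median log2 difference of 0.60, which was −0.45 with total counts. Those higher were AT4G23010 (3.78 ± 0.23), IQD22 (3.16 ± 0.25), AT4G23470 (2.11 ± 0.21) and AT4G23460 (1.21 ± 0.20), and the lower one was the aquaporin gene PIP1;5 (−1.85 ± 0.18). At 10 against 0 µM ESP, the gene of separase, was called higher as well (1.91 ± 0.72) and AT4G23440 lower (−1.06 ± 0.39), and at 1 against 0 µM AT4G23010 was called alone (2.55 ± 0.22). At 100 against 0 µM the 4 of 20 higher and the 1 lower stand beside 23.8% and 14.9% of all genes. In all, 5 were higher and 2 lower at 10 µM, beside 22.4% and 12.1%, and 1 was higher at 1 µM, beside 13.5%. Inside the cluster 11 of 15 were called higher at 100 µM. Only 5 of those 15 had 5 or more reads in an untreated library, so no contrast with the neighbours is drawn.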

How the data were processed

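RNA of the 12 libraries was read by MARS-seq, which counts 3′ ends. Per the labels and methods the authors used bcl2fastq 2.17.1.14, cutadapt 1.8.3, STAR and HTSeq on the Araport11 annotation, kept genes with at least 5 reads in at least 1 sample, did not filter on molecular identifiers and did not pool replicates. The deposited table holds raw read counts per gene, which were used here. It also holds a normalized signal, the counts divided by 1 size factor per library by the authors with DESeq2, and regularized log2 values by the authors, neither of which was used. The deposited columns of the authors' own comparisons hold fold changes and p-values and were not used. Without molecular identifiers, reads are not independent molecules, and intervals cover counting error only.

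Counts of all 12905 genes were fitted in edgeR 4.0.16 (R 4.3.3) with TMM scaling, 1 coefficient per dose over all 12 libraries and quasi-likelihood tests, with Benjamini-Hochberg adjustment over all genes. Genes with an adjusted p under 0.05 and a change of at least 2-fold were called. The difference between any doses used the joint test and the adjusted p alone. Ratios of summed counts with exact 95% binomial intervals replaced fitted changes where a gene had 1 to 3 reads at the lower dose, and with 0 reads a floor of 3 counts over the group gave a bound. Sequences and gene models came from RefSeq TAIR10.1, where 12831 of the identifiers were matched. The fit was tested on simulated counts. Members and lists were chosen with earlier results of these data known. Every analysed member is named. Values in every library are given for members called at 100 against 0 µM with libraries that did not overlap and at least 10 CPM on average in the higher group, for the 5 most abundant members and for members with calls in opposite directions, and genes of the related lists are named where called against 0 µM. Alternatives were RLE scaling, total counts, 10 reference genes, filterByExpr, DESeq2 1.42.0, the replicate number as a block, a fit of only the groups compared, other thresholds, only members with 5 reads at 0 µM, and each library left out in turn. The related lists were run under them as an addition made after seeing the data. Figures used matplotlib 3.10.9.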

Additional observations from a re-analysis of the deposited data

How the results depend on the processing

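Of 70 called member changes in the 5 comparisons, each re-run under 20 alternatives where a value could be had, 1348 of 1391 repeats kept direction and call, 43 lost the call and 0 reversed. The lost calls fell on 11 changes, of CRK6, CRK7, EP1, CRK12, CRK13, CRK28 and CRK36 at 10 against 1 µM, CRK12 and CRK18 at 10 against 0 µM, and CRK13 and CRK39 at 1 against 0 µM. With members of at least 5 untreated reads alone, 9 were called higher at 100 against 0 µM, 10 at 10 against 0 µM, 7 at 1 against 0 µM and 6 at 10 against 1 µM (beside 9.79% of all genes with as many), since fewer genes were counted. Under total counts 1 member, CRK4, was called lower at 100 against 0, at 10 against 0 and at 10 against 1 µM. Of all genes, 43.7%, 38.2% and 18.8% were called lower there. With that scaling 8 members (4 in the cluster) were called higher at 10 against 1 µM, beside 7.55% of all genes. At 100 against 10 µM it called 3 members lower, all outside the cluster, beside 3.86% of all genes. A fit of only the groups compared also called 3 lower at 100 against 10 µM, all outside the cluster, beside 2.94%. For these the cause was not tested. Leaving out each library gave 0 to 1 lower at 10 against 1 µM and 1 to 3 lower at 100 against 10 µM, again all outside the cluster. Of all genes, 3.91 to 5.66% and 1.75 to 4.59% were then called lower in these 2 comparisons. With total counts at 100 against 0 µM, 0 PDLP genes were higher and 3 lower, and 1 partner gene and 7 neighbours were lower. Of all genes, 14.3% were called higher and 43.7% lower with that scaling. HWI1 turned to −0.018, beside a median of all genes of −1.01. Leaving out each library gave 1 to 2 PDLP genes higher and 0 to 1 lower.

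Same-numbered replicates correlated between −0.17 and 0.30 in their deviations (9 of 18 pairs over 0.1, median 0.09, against −0.09 for other numbers). Same-numbered pairs leaned weakly higher, and these values do not settle whether the numbers pair the libraries. The main fit did not pair them. With the replicate number as a block, 21 members were called higher at 100 against 0 µM and 21 at 10 against 0 µM, since CRK29 gained a call (1.15, adjusted p = 0.0282 by edgeR) and CRK18 lost one (adjusted p = 0.0518 by edgeR). Depth limits the members with few reads, such as CRK8, CRK15, EMB1290, CRK18, CRK41 and CRK42, and a missing call there does not show that levels were alike.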
